A study of Mus musculus with 9 samples.

Results

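A total of 3941 H3K27ac peaks lay away from promoters and were called in the forelimb buds of all 3 genotypes studied: wild type (WT), Shh-/- and Shh-/-;Gli3-/-. They are WT peaks that overlapped a peak of the Shh-/- list and a peak of the Shh-/-;Gli3-/- list by at least 1 bp. They also overlapped no promoter window, taken from 2 kb before to 1 kb after the start of each protein-coding transcript. The members were thus selected on measured values, namely the peak calls of the 3 lists, so their presence, fold and width in those lists are given as a description with no test. Of 25096 WT peaks, 58.3% overlapped a peak of both mutant lists. Of the 11667 distal WT peaks, 33.8% did (Wilson 95% interval 32.9% to 34.6%), against 79.6% of the 13429 promoter peaks (78.9% to 80.3%). The remaining distal WT peaks were shared with the Shh-/-;Gli3-/- list only (2167), with the Shh-/- list only (609) or with neither (4950).

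Enhancers are stretches of DNA, often far from the gene they regulate, that bind transcription factors and raise transcription from a promoter. Acetylation of histone H3 at lysine 27 marks active enhancers and active promoters, so an acetylated region away from any promoter is a candidate enhancer. In the limb bud, mesenchymal genes such as Tbx5, Lmx1b and Gli3 are known to be controlled by such regions in introns, in flanking intergenic DNA and in neighbouring genes.

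H3K27ac was profiled by MicroChIP-seq, chromatin immunoprecipitation for small cell numbers, in forelimb buds at E10.5 (33 to 34 somites). The 9 libraries were 2 H3K27ac libraries and 1 input library for each genotype, amplified with 12 PCR cycles, and each H3K27ac library came from the limb buds of an individual embryo. The labels give the strain background as mixed, while the methods name Swiss Webster for the Shh and Gli3 null alleles. WT embryos were littermates. Shh-/- embryos carried a null allele of Sonic hedgehog in every cell, and Shh-/-;Gli3-/- embryos also carried the Xt-J null allele of Gli3, the main repressor of the Hedgehog pathway in the limb. The labels give wild type as the genotype of all samples, so groups were taken from the titles. Each genotype is represented by 1 peak list with no value per replicate, so no difference between genotypes could be set against the spread between embryos. All intervals cover counting error over peaks only, and neighbouring peaks are not independent.

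To show what such regions look like, 300 bases are printed around the position of the largest peak-caller statistic in the WT peak of highest fold, for 5 of the genes with most members. The sequences are read 5′ to 3′ on the plus strand of mm10 (RefSeq GRCm38), and each is named by the nearest protein-coding gene. Capitals mark matches, on either strand, to any of 18 short motifs listed with the motif results further on.
Lmx1b: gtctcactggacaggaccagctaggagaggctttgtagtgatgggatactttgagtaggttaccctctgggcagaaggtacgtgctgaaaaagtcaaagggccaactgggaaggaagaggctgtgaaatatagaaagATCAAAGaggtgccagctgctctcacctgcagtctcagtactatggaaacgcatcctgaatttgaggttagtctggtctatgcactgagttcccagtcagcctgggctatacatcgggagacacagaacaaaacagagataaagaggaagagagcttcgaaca
Mecom: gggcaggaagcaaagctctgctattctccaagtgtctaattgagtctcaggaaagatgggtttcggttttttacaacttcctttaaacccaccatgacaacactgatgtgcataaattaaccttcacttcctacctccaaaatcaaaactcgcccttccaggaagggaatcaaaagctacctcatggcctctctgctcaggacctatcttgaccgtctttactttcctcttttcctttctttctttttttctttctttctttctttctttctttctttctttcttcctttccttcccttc
Mrpl23: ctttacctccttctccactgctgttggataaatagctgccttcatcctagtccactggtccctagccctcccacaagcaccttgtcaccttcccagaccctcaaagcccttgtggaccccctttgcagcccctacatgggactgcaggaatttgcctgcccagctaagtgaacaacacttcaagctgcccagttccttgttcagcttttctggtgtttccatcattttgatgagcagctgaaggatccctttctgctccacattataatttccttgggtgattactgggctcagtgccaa
Gpc5: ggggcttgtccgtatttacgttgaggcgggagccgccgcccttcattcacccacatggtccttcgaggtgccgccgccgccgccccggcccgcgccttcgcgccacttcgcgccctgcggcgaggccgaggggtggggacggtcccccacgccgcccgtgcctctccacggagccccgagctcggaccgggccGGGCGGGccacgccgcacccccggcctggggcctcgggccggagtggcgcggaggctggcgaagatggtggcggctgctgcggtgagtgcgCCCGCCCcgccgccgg
Tbx5: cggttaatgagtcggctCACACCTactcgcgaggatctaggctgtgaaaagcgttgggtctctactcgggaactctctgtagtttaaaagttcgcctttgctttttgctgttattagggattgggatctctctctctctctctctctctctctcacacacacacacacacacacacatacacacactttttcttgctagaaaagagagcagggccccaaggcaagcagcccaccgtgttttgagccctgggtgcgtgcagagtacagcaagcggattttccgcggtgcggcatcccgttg
The Lmx1b sequence lies at chr2:33706925-33707224 in intergenic DNA 65.9 kb upstream of Lmx1b, which specifies dorsal limb mesenchyme, and holds 1 TCF/LEF match. The Mecom sequence, at chr3:30419925-30420224, lies in an intron of Mecom, a zinc finger regulator, and holds no match. The Mrpl23 sequence, at chr7:142554525-142554824, lies between Mrpl23 and the imprinted gene H19, inside the span of the non-coding gene Nctc1. It contains neither a CG dinucleotide nor a match.

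The Gpc5 sequence differs from the others in composition. It lies at chr14:115040925-115041224, 49.1 kb upstream of Gpc5, in a peak that overlaps the start window of Mir17hg, host of the miR-17 to miR-92 cluster. It has a GC content of 78.3%, 45 CG dinucleotides and 2 SP/KLF matches. The other 4 sequences have a GC content of 41.0% to 51.7% and 0 to 14 CG dinucleotides. The Tbx5 sequence, at chr5:119804175-119804474, is 28.7 kb upstream of the forelimb initiation gene Tbx5 and holds 1 T-box match. Across all 11663 distal WT peaks on assembled chromosomes, windows of the same length held a TCF/LEF match in 4.52%, a T-box match in 5.77% and an SP/KLF match in 7.16%. A match is a description of the letters and not evidence of a binding site.

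The distal peaks common to all genotypes were mostly narrow and of middling rank in the WT list. Their median WT width was 300 bp (interquartile range 200 to 500 bp), against 150 bp for WT-only distal peaks and 500 bp for common promoter peaks. The median log2 fold of immunoprecipitated over input reads was 2.77 in WT (2.44 to 3.20), and 66.8% of members had an FDR below 0.05 in the WT list. That share was 44.7% for all distal WT peaks, 29.2% for WT-only distal peaks and 84.4% for common promoter peaks. Counted from the strongest peak of each list, the median member stood at the top 46.5% of WT, 33.6% of Shh-/- and 21% of Shh-/-;Gli3-/- peaks. Common promoter peaks stood higher in each list, at 25.4%, 18% and 15.7%. The order of the members was only loosely shared: Spearman's rho over the 3941 members was 0.275 between the WT and Shh-/- ranks, 0.274 between WT and Shh-/-;Gli3-/-, and 0.376 between the mutants. These ranks share peaks that were selected for being present in every list, and 78 members were in the top 10% of all 3.

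At the edges of the rule, membership often rested on small overlaps. The smallest overlap was 50 bp, which is the step in which the lists give positions, and 426 members overlapped a peak of at least 1 mutant by just that much. Those members had a median log2 fold of 2.44 and a median width of 150 bp. Outside the rule, 633 distal WT peaks missed membership by a gap of at most 50 bp, and 1997 by at most 500 bp. The latter had a median log2 fold of 2.40 and a median width of 150 bp, so peaks just inside and just outside were alike in these measures. At the promoter edge, 181 members lay within 500 bp of a promoter window.

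The common distal peaks were more often intergenic than the distal peaks found in WT alone. By the middle of the peak, 2171 members (55.1%, 53.5% to 56.6%) were intergenic, 1620 (41.1%, 39.6% to 42.7%) were intronic and 150 (3.81%) were exonic. Among WT-only distal peaks, 40.8% (39.5% to 42.2%) were intergenic and 53.3% intronic. The intergenic share lay between these values in peaks shared with 1 mutant list, at 48.2% for Shh-/-;Gli3-/- and 48.3% for Shh-/-. Among WT peaks with an FDR below 0.05, 56.8% (54.9% to 58.7%) of 2632 members and 39.7% (37.2% to 42.2%) of 1447 WT-only peaks were intergenic.

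**Figure D1:**
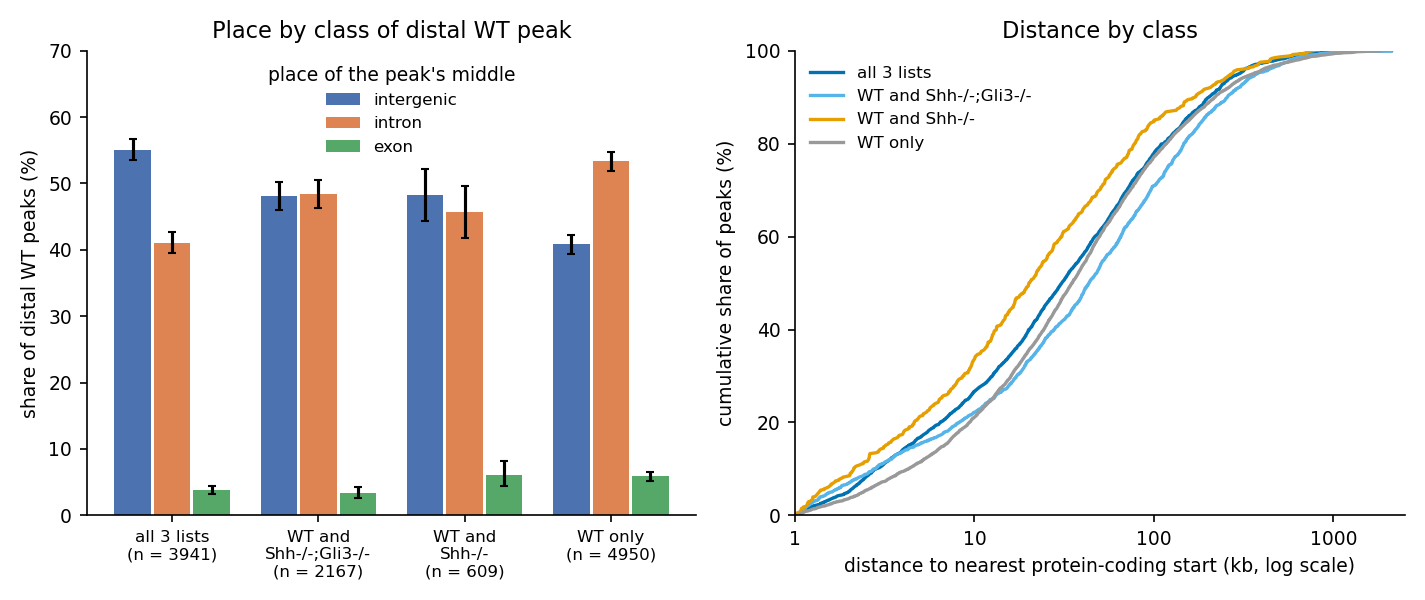
Left, share of distal WT peaks (%) with their middle in intergenic, intronic or exonic sequence, by the lists in which they were found; bars start at 0 and error lines are Wilson 95% intervals. Right, cumulative share of peaks (%) against distance to the nearest protein-coding start (kb, log scale). Peaks in all 3 lists had the highest intergenic share (55.1%), and WT-only peaks the highest intronic share (53.3%).

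The members lay a median of 30.6 kb from the nearest protein-coding start (interquartile range 9.20 to 89.0 kb), between the peaks shared with Shh-/- only (20.15 kb) and those found in WT alone (35.0 kb) or shared with Shh-/-;Gli3-/- only (43.5 kb). More than 100 kb from any such start were 870 members (22.1%), against 23.4% of all distal WT peaks. More than 500 kb away were 72 members (1.83%), against 2.51% of all distal WT peaks. The most remote member, at chr14:90579450-90579549, lay 2108 kb upstream of Pcdh20, a cell adhesion gene. It was 100 bp wide in WT, 250 bp in Shh-/- and 500 bp in Shh-/-;Gli3-/-. For 1289 of the 1620 intronic members (79.6%), the nearest start belonged to the gene that holds the intron.

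A part of the members lay at starts of transcripts that do not code for protein. The 2 kb to 1 kb window of such a start was overlapped by 675 members (17.1%, 16% to 18.3%), against 6.20% of WT-only distal peaks and 8.40% of those shared with Shh-/-;Gli3-/- only. In peaks shared with Shh-/- only the share was 13.3% (10.8% to 16.2%), an interval that overlaps that of the members. These starts were most frequent among the strongest members. Of the 10 members with the highest WT log2 fold, 8 overlapped one. The highest fold, 6.35, belonged to a peak at chr10:122984500-122986949 nearest Mon2, which overlaps the start windows of Mirlet7i and D630033A02Rik. It was 2450, 2850 and 2950 bp wide in WT, Shh-/- and Shh-/-;Gli3-/-, respectively. Another of the 10, nearest Gm19426 at chr2:84741850-84742499, lies at Mir130a.

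The widest members included further microRNA hosts. A WT peak of 4500 bp at chr1:162217000-162221499, in an intron of Dnm3, overlaps the starts of Dnm3os, Mir199a-2 and Mir214, a precursor transcript known for its role in skeletal growth. It was covered over 5000 bp in Shh-/- and 5750 bp in Shh-/-;Gli3-/-. The 3000 bp peak at Mir17hg was covered over 2450 and 3250 bp. The widest of all, 5350 bp at chr11:120184600-120189949 nearest Slc38a10, was broken into 6 Shh-/- peaks totalling 4400 bp and lay within 1 Shh-/-;Gli3-/- peak of 5650 bp. Among the 10 members with the highest WT fold, the Shh-/-;Gli3-/- width was between 0.897 and 1.56 times that of WT, and the Shh-/- width between 0.750 and 1.21 times, apart from 4.85 times at Gm19426.

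The members were richer in CpG than the other distal WT peaks. The median GC content of the 300 bp windows was 51.3% in the members and 50.7% in WT-only peaks. It was 52.7% in peaks shared with Shh-/- only and 48.7% in those shared with Shh-/-;Gli3-/- only. The median ratio of observed to expected CpG was 0.303 in the members and 0.191 in WT-only peaks. It was 0.277 in peaks shared with Shh-/- only, 0.235 in those shared with Shh-/-;Gli3-/- only and 0.771 in common promoter peaks. With CpG islands defined as peaks of at least 200 bp with a GC content over 50% and a ratio over 0.6, 550 of 3938 members on assembled chromosomes (14.0%, 12.9% to 15.1%) qualified. The share was 0.768% in WT-only peaks, of which fewer reached 200 bp (1168 of 4949, against 3107 members), 4.60% and 3.41% in peaks shared with Shh-/- only and with Shh-/-;Gli3-/- only, and 69.3% in common promoter peaks. In peaks shared with Shh-/- only and with Shh-/-;Gli3-/- only, 265 of 609 and 1111 of 2167 reached 200 bp. Without the members at other transcript starts, the island share of members was 9.56% (8.60% to 10.6%). Their median CpG ratio was then 0.275, close to that of peaks shared with Shh-/- only, from which such starts were not removed.

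The members were concentrated near few genes. By nearest protein-coding start, 1747 genes had at least 1 member. Of these, 910 had 1, 656 had 2 to 4 and 181 had 5 or more, and these 181 genes held 1379 members (35.0%). The nearest start names a position, and the gene regulated by a member was not measured. Since a wide mutant peak can hold several WT peaks, covered lengths below are given for regions made by joining all overlapping peaks of the 3 lists, which treats the lists alike. Such regions can extend into promoter windows.

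Lmx1b had the most members, 30 of its 40 distal WT peaks, of which 23 were intergenic and upstream and 7 were in its own introns. They spanned 135 kb in 3 groups, and their joined regions were covered over 19.35, 20.2 and 30.95 kb by WT, Shh-/- and Shh-/-;Gli3-/- peaks, respectively. The coverage was thus close in WT and Shh-/- and larger in the double mutant. Mecom had 25 members, 23 of them intronic, over 506 kb, with 26.05, 34.05 and 43.15 kb covered in the same order. Tbx5 had 19 of 24, all within 38.5 kb of its start, and 15.3, 19.7 and 21.85 kb covered.

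Several of the leading genes stand for a neighbouring locus. All 24 members nearest 4930558K02Rik lay in introns of Dnm3, which held 30 intronic members in all, the most of any gene. All 22 members nearest Mrpl23 formed a single locus that reaches H19. The 17 nearest Nfe2l3 were all upstream and intergenic, between 48.1 and 263 kb away. Gpc5, a heparan sulfate proteoglycan gene, had 19 members over 1140 kb, 12 of them in its introns.

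Of the first 20 genes, which together held 337 members, 18 had their largest covered length in the Shh-/-;Gli3-/- list and 19 their smallest in WT. The exceptions to the first were Sorl1 and Zfp516, which were largest in Shh-/- (8.85 and 7.80 kb), and to the second Gpc5, which was smallest in Shh-/- (11.95 kb against 14.4 kb in WT). Of all 181 genes with 5 or more members, 162 had their largest covered length in the Shh-/-;Gli3-/- list, so the leading genes did not stand apart in this. Trps1, a GATA-type repressor of skeletal development with 14 of 15 members in its introns, had 5.55, 7.4 and 15.1 kb covered. Msx1, a homeobox gene of limb mesenchyme, had 13 members and 6.30, 8.70 and 9.35 kb covered.

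**Figure D2:**
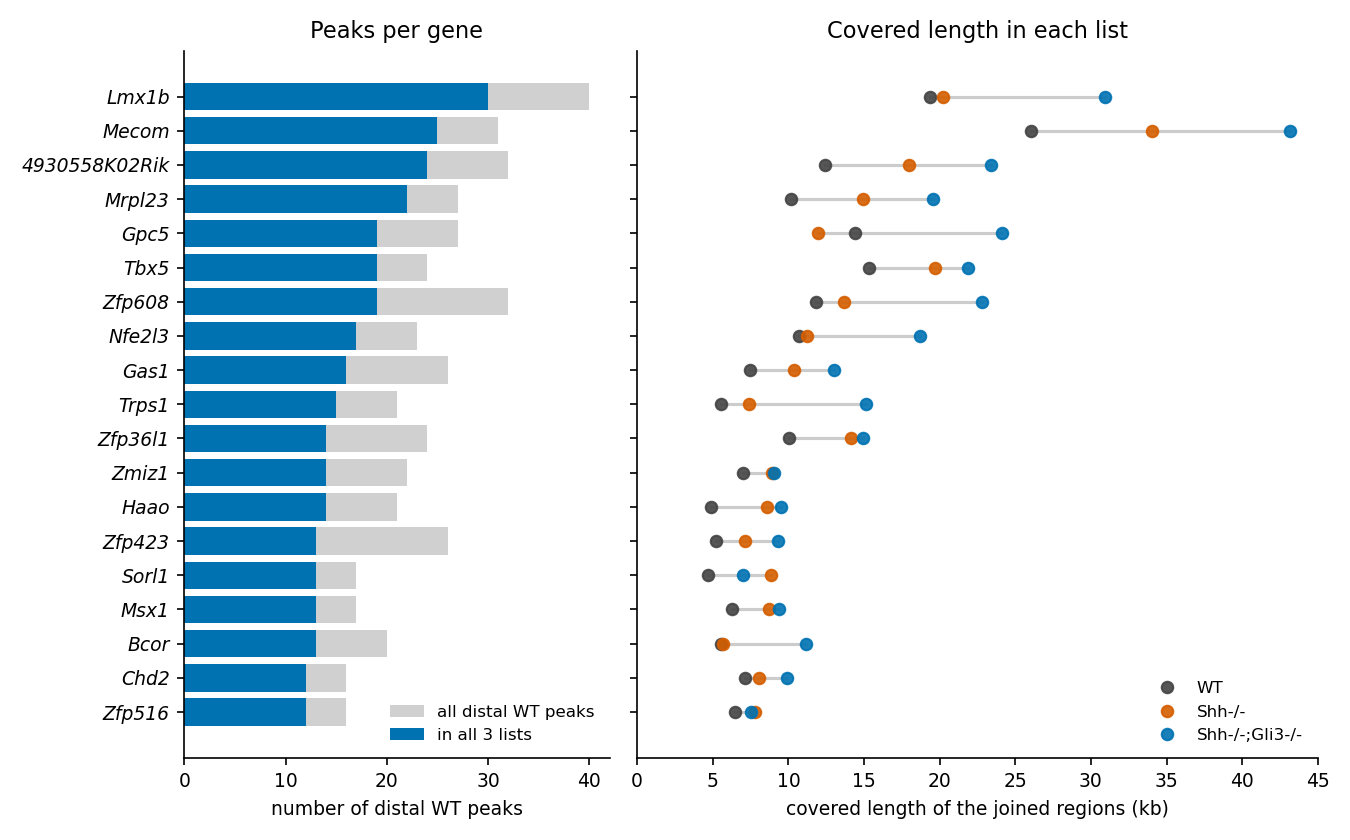
Left, number of distal WT peaks nearest each of 19 of the 20 genes with most members; the blue part is the peaks found in all 3 lists. Right, covered length (kb) of the joined regions of those members in each list, 1 point per list. Shh-/-;Gli3-/- lay to the right of WT in all 19 genes drawn, and it was the largest of the 3 in 17. It was the largest in 162 of all 181 genes with 5 or more members.

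The members were clustered along the chromosome. Another member lay within 12500 bp of 64.5% of them (62.9% to 65.9%), and any distal WT peak within that distance of 78.5% (77.2% to 79.8%). The latter share was 67.3% for peaks shared with Shh-/-;Gli3-/- only, 59.9% for those shared with Shh-/- only and 32.5% (31.2% to 33.8%) for WT-only peaks. Much of this closeness was that of fragments: 33.4% of the gaps between successive members were under 1 kb. After peaks within 1 kb were merged in each list, 22.2% of 2552 members had another member within 12500 bp. Any distal WT peak then lay within that distance of 36.3% (34.4% to 38.2%) of members and 20.2% (19.0% to 21.4%) of WT-only peaks. The share was 32.0% (29.4% to 34.75%) for peaks shared with Shh-/-;Gli3-/- only and 31.6% (27.1% to 36.5%) for those shared with Shh-/- only, and both intervals overlap that of the members.

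Chained over gaps of up to 12500 bp, the members formed 2261 loci. Of these 1401 held 1 member, 761 held 2 to 4 and 99 held 5 or more, and the last group contained 689 members (17.5%) on 20 chromosomes. Their span had a median of 10.45 kb and reached 41.0 kb. Summed over the 99 loci, the covered length was 379 kb for WT, 464 kb for Shh-/- and 631 kb for Shh-/-;Gli3-/- peaks. The Shh-/-;Gli3-/- list covered most in 82 of them, Shh-/- in 13 and WT in 1.

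The locus with most members, 22 over 40.3 kb at chr7:142537700-142577999, runs from Mrpl23 through Nctc1 to H19, a region known to hold enhancers shared by the imprinted genes H19 and Igf2. It held 25 WT peaks covering 10.15 kb, 35 Shh-/- peaks covering 17.8 kb and 24 Shh-/-;Gli3-/- peaks covering 23.85 kb. The share of the span under peaks was 25.2%, 44.2% and 59.2%, in that order. The locus in Dnm3 introns, 16 members over 24.35 kb at chr1:161999600-162023949, was covered over 9.40, 14.85 and 17.05 kb.

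The Lmx1b locus, with 16 members over 19.5 kb at chr2:33700550-33720049, showed another pattern. WT peaks covered 7.60 kb, Shh-/- peaks 7.0 kb and Shh-/-;Gli3-/- peaks 15.35 kb of it, in 18, 17 and 8 peaks, the last of which were wider. A further Lmx1b locus, 13 members across the gene's start region, had 11.75, 13.7 and 15 kb covered. The Tbx5 locus, 11 members over 15.5 kb at chr5:119829000-119844499, was covered to 67.4%, 77.7% and 78.4%. Only the locus nearest Rpusd4 among the first 10, with 12 members over 12.3 kb, was largest in Shh-/-, with 3.30, 6.70 and 5.40 kb.

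**Figure D3:**
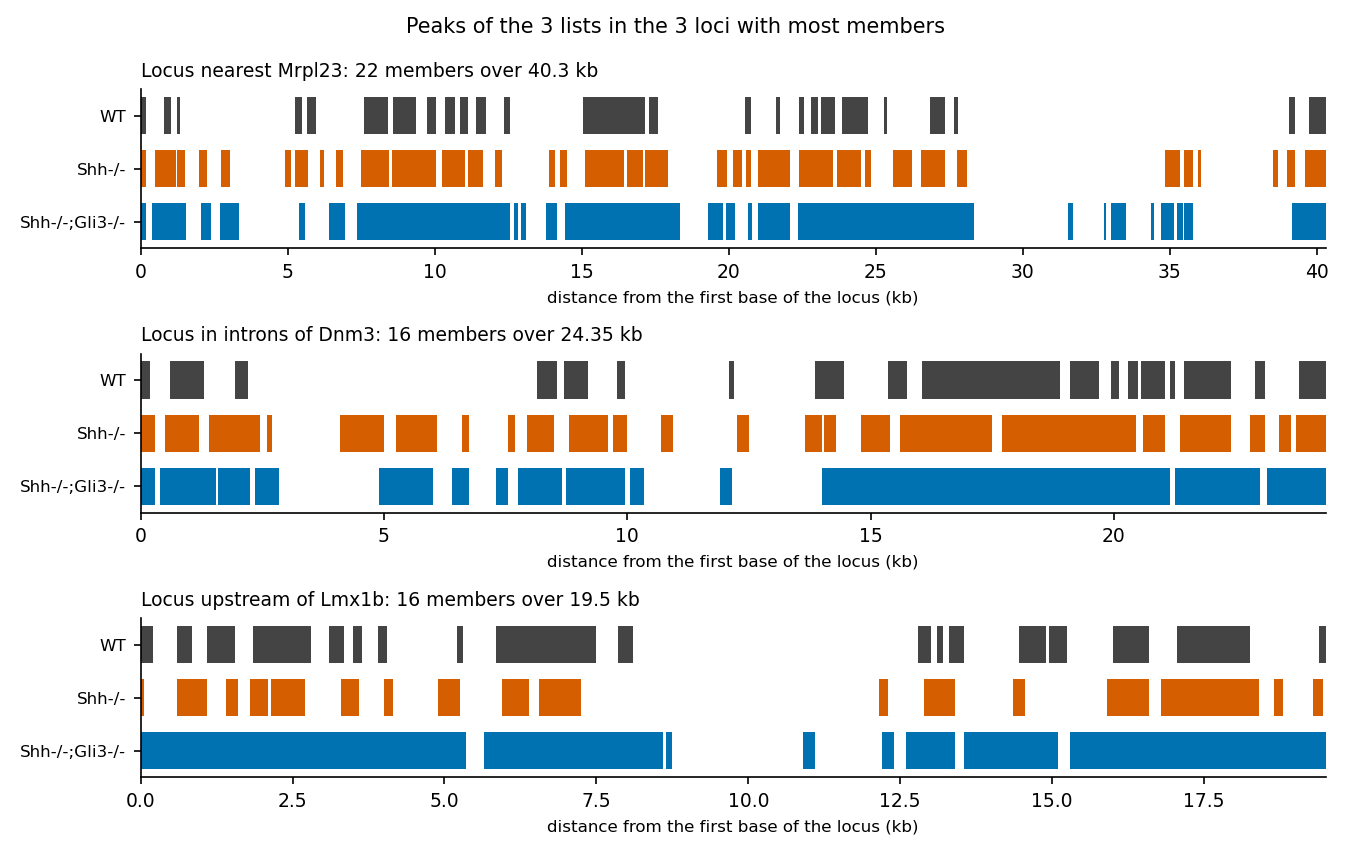
Peaks of the WT, Shh-/- and Shh-/-;Gli3-/- lists (rows) in the 3 loci with most members, drawn to scale in kb from the first base of each locus; each block is 1 peak. The Lmx1b locus held 18 WT peaks and 8 wider Shh-/-;Gli3-/- peaks.

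Across the lists, the common distal regions were wider in Shh-/- than in WT and wider again in Shh-/-;Gli3-/-, and their ratios to WT were above those of common promoter regions. The 2832 joined distal regions with a member, without 202 that touch a promoter window, held 1568.0 kb under WT peaks, 1881.7 kb under Shh-/- peaks and 2683.8 kb under Shh-/-;Gli3-/- peaks. The ratio to WT was thus 1.20 and 1.71 for the totals. Per region, the Shh-/- to WT ratio had a median of 1.20 (order-statistic 95% interval 1.17 to 1.22), and the Shh-/-;Gli3-/- to WT ratio one of 1.67 (1.6 to 1.69). In 9252 joined promoter regions, the medians were 1.09 (1.08 to 1.10) and 1.22 (1.21 to 1.23). The median length under WT peaks was 400 bp in the distal and 600 bp in the promoter regions. The 2 sets were not matched for width or rank in WT, so the part of these in the contrast was not tested. Peaks also ran together: 28.95% of distal regions held several WT peaks and 29.7% several Shh-/- peaks, but 10.3% several Shh-/-;Gli3-/- peaks.

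The covered length was at least 2-fold larger than WT in 622 distal regions (22%) in Shh-/- and in 1121 (39.6%) in Shh-/-;Gli3-/-. Over all 12449 joined regions found in the 3 lists, promoters included, these shares were 14.3% and 21.2%. It was at least 2-fold smaller in 280 (9.89%, background 5.27%) and 74 (2.61%, background 2.14%), respectively. Shh-/- thus held more distal regions than the background at both ends. Since the members were chosen by these same calls, the shares are descriptions. The Shh-/-;Gli3-/- list covered the most in 1842 distal regions (65.0%), Shh-/- in 533 (18.8%) and WT in 236 (8.33%). Over all 12449 joined regions, these shares were 55.3%, 22.9% and 10.3%.

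The unit of counting set the size of the ratio. When each WT peak was set against the summed length of all mutant peaks that touch it, the medians were 1.375 in Shh-/- and 2.60 in Shh-/-;Gli3-/-. In the 1889 members (47.9%) where a single peak of each list overlapped no further peak, median widths were 300, 350 and 550 bp, and the medians of the ratio were 1.17 and 1.63. Promoter peaks matched singly in the same way had medians of 1.10 and 1.22. The lists differ in stringency and in peak number. Counted per WT peak, the medians were 1.23 and 2.09 with an FDR below 0.05 in all 3 lists, and 1.5 and 2.75 with equal numbers of peaks per list. On the X chromosome, where the Shh-/-;Gli3-/- list held 1458 peaks against 605 in WT and 697 in Shh-/-, the 57 distal regions had a total 2.02 times that of WT, and autosomal regions 1.71 times.

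**Figure D4:**
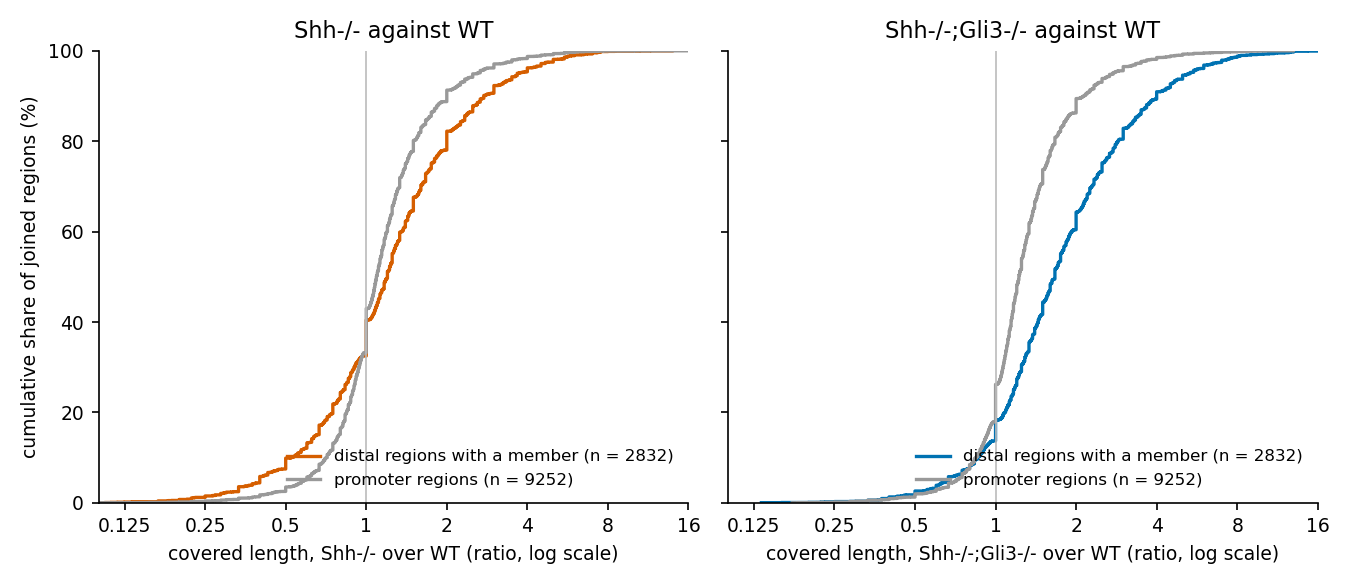
Cumulative share of joined regions (%) against the ratio of covered length in Shh-/- (left) or Shh-/-;Gli3-/- (right) to WT (log scale), for 2832 distal regions with a member (coloured) and 9252 promoter regions (grey); the vertical line marks a ratio of 1. The distal curve lies to the right of the promoter curve above a ratio of 1, and further so in Shh-/-;Gli3-/- (median 1.67 against 1.22).

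Single members gave the range of these changes. Among singly matched members of at least 500 bp in some list, the lowest Shh-/- to WT ratio was at chr6:144781450-144782349 nearest Bcat1, with 900 bp in WT, 100 bp in Shh-/- and 1700 bp in Shh-/-;Gli3-/-. A member in an intron of Tcf7l1, a WNT effector, followed with 650, 100 and 950 bp. The highest ratios in Shh-/-;Gli3-/- were at weak WT peaks. One lay 17.25 kb upstream of Gpc3, a glypican gene on the X chromosome, with 100, 600 and 3250 bp. Another lay in an intron of Trps1, with 100, 450 and 2800 bp. The lowest ratios in Shh-/-;Gli3-/- included a member 44.8 kb downstream of Tbx4, with 500, 150 and 150 bp.

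Among the 181 genes with 5 or more members, the covered length was above WT in all 181 in Shh-/-;Gli3-/- and in 147 in Shh-/-, with median ratios of 1.75 and 1.28. Over all 1747 genes with a member, the covered length was above WT in 1447 and 1061, respectively, with median ratios of 1.53 and 1.17. The regions on the Mtx2 side of the HoxD cluster, a gene desert known to regulate Hoxd genes in the limb, were among the largest in the double mutant. The 5 members nearest Hnrnpa3 had 2.80, 2.60 and 12.8 kb covered, and the 7 nearest Mtx2 had 2.0, 2.60 and 6.65 kb. The region with members at chr2:75423050-75423949 and chr2:75424600-75425049 was covered over 1350, 1700 and 5200 bp. In both totals, the WT and Shh-/- lengths were closer to each other than to that of the double mutant. Within them, single regions differed between WT and Shh-/- in either direction. The region with a member at chr2:75438950-75439499 was covered over 750, 250 and 2950 bp. The one at chr2:75348800-75348899 was covered over 100, 450 and 1250 bp.

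Several other genes with high ratios exceeded WT in both mutants. The 7 members upstream of Col1a2, a collagen gene of mesenchyme, had 1.40, 4.50 and 4.80 kb covered. The 8 nearest Gm21954, of which 5 lie in the doublecortin-like kinase gene Dclk1, had 1.90, 5.90 and 8.90 kb. The 5 nearest Sema3f, a semaphorin gene, had 1.05, 2.85 and 2.90 kb, and the 9 nearest Actrt2 had 1.80, 5.90 and 5.20 kb. The 6 nearest Farp1 had 1.40, 1.65 and 4.65 kb, with the double mutant apart from the other lists. The lowest ratios in Shh-/- were at Parp16 (3.70 kb in WT, 2.45 kb in Shh-/-), Fli1 (6.30 and 4.55 kb), Hoxc4 (2.45 and 1.80 kb), Meis1 (3.70 and 3.0 kb) and Gli2 (2.95 and 2.40 kb). The covered length of each of these 5 genes exceeded WT in Shh-/-;Gli3-/-, with ratios between 1.20 and 1.77.

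Among the lists of limb genes, the longest, that of mesenchymal regulators, held the most members. Of 51 transcription factors of limb mesenchyme, 32 (62.75%) had at least 1 member, 147 in all, while 7.99% of 21875 protein-coding genes had one. Counted by peak the contrast was smaller. Members made up 147 of the 300 distal WT peaks of this list (49.0%), against 33.8% of all distal WT peaks. Behind Lmx1b, Tbx5 and Msx1 came Zfhx3 with 8, and Meis1, Meis2 and Twist1 with 7 each. Twist1, a regulator of mesenchyme identity, had all its members within 9.88 kb downstream of its start, and its joined regions covered 6.00, 10.4 and 10.45 kb. At Hoxd10, a posterior HOX gene, 2 of 6 distal WT peaks were members, and none of the 5 at Hoxd11 and the 7 at Hand2 was one: all 5 and 6 of the 7 were shared with Shh-/-;Gli3-/- only.

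Of 32 signalling genes, 17 had a member, and members made up 62 of their 156 distal WT peaks (39.7%). Dusp6, a feedback inhibitor of FGF signalling, had 12 of 21 distal WT peaks as members, and its other 9 were all shared with Shh-/-;Gli3-/- only. Its covered length was 7.05 kb in WT, with 1.02 times as much in Shh-/- and 1.77 times as much in Shh-/-;Gli3-/-. All 5 distal WT peaks at Bmp4, a ligand of the BMP pathway, were members, and they lay in introns within 4.85 kb of the nearest start, with 1.95, 2.95 and 2.80 kb covered. Among cartilage genes, 6 of 12 had a member, including 5 at Sox9, which lay 195.0 to 255.5 kb from its start.

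For the Hedgehog pathway, members were near receptors and GLI factors and not near the usual transcriptional targets. The co-receptor genes Gas1, Boc and Cdon had 16, 5 and 5 members, and the transcription factor genes Gli3 and Gli2 had 7 and 5. The targets Ptch1 and Gli1 had none, with 7 and 3 distal WT peaks of other classes. The joined regions at Gas1 covered 7.45, 10.35 and 13.0 kb, those at Boc 1.70, 3.95 and 3.25 kb and those at Cdon 1.25, 3.25 and 2.45 kb. Each was larger in both mutants than in WT. Gli3 had 9.80, 8.30 and 13.75 kb and Gli2 2.95, 2.40 and 5.05 kb, smaller in Shh-/- and larger in Shh-/-;Gli3-/-. A Gli3 region 118.0 to 119.5 kb upstream, with members at chr13:15341950-15343749 and chr13:15343850-15345299, was covered over 3650, 2850 and 5300 bp. For scale, the median ratio to WT over all 1747 genes with a member was 1.17 in Shh-/- and 1.53 in Shh-/-;Gli3-/-.

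Lists for other cell types had few distal WT peaks of any class. The 10 neural, 6 heart and 6 liver and gut genes had 2, 1 and 3 such peaks, none of them a member, too few to set against the share of 33.8% over all distal WT peaks. The 8 blood genes had 3 members of 5 distal WT peaks, all 3 at Ptprc, the 8 muscle precursor genes had 2 of 5 and the 13 limb ectoderm genes 3 of 6. Of the 12 endothelial genes, 5 had a member, the same number as of the 12 Hedgehog pathway genes. Members made up 10 of 25 distal WT peaks in the endothelial list (40.0%), 5 of them at Fli1, and 38 of 86 (44.2%) in the Hedgehog list. Tbx4, a gene of hindlimb identity, had 8 of 9 distal WT peaks as members, with 2.25, 3.35 and 4.50 kb covered, while Pitx1 and Isl1 had none. The share of other cell types in the buds was not measured.

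Promoter-type letters were more frequent in the members than in WT-only peaks, but not more than in peaks shared with Shh-/- only. In 300 bp windows centred on the peak, whatever its width, the SP/KLF motif GGGCGGG occurred in 11.05% of members (10.1% to 12.1%), 4.24% of WT-only peaks, 5.68% of peaks shared with Shh-/-;Gli3-/- only, 11% (8.76% to 13.7%) of peaks shared with Shh-/- only, 7.16% of all distal WT peaks and 30.2% of common promoter peaks. Among windows with a GC content from 45% to below 50%, it occurred in 4.15% (3.03% to 5.67%) of members and 1.90% (1.30% to 2.77%) of WT-only peaks. Across all windows, the ETS motif CCGGAAG was in 3.63% of members and 2.0% of WT-only peaks, and the CTCF motif AGGGGGC, which is part of a longer site, in 7.87% and 5.37%. In peaks shared with Shh-/- only these shares were 5.09% and 9.20%. Within the GC range, the intervals of members and WT-only peaks overlapped for ETS (1.37% to 3.31% and 0.665% to 1.80%) and for CTCF (3.99% to 6.94% and 2.78% to 4.78%). All motifs were searched on both strands and windows of close members overlap.

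Letters of several developmental factors were less frequent in the members than in WT-only peaks. The MEIS motif CTGTCA was in 16.9% against 20.4%, the TWIST E-box CATCTG in 20.1% against 23.8% and the AP-1 motif TGANTCA in 6.35% against 8.26%, each with intervals that did not overlap. Within the GC range above, those of MEIS and AP-1 overlapped, while TWIST E-box letters were in 19.98% (17.5% to 22.7%) and 25.04% (22.8% to 27.4%). Across all windows, peaks shared with Shh-/-;Gli3-/- only held these letters in 17.7% (MEIS), 22.1% (TWIST E-box) and 7.71% (AP-1). Peaks shared with Shh-/- only held them in 15.9%, 24.0% and 8.21%. The intervals of both classes overlapped those of the members for each of these motifs. The GLI motif GACCACC was in 2.67% of members (2.21% to 3.22%), 3.68% of WT-only peaks (3.19% to 4.24%) and 3.19% of all distal WT peaks. Within the same GC range these shares were 1.57% (0.938% to 2.62%, 14 of 891 windows), 3.28% (2.46% to 4.37%) and 2.67%, so the members' share was the lower one in each setting with intervals that overlapped narrowly. Across all windows, GLI letters were in 2.91% (2.28% to 3.70%) of peaks shared with Shh-/-;Gli3-/- only. In peaks shared with Shh-/- only they were in 3.61% (2.40% to 5.41%), and both intervals overlap that of the members. For the remaining motifs, the intervals of members and WT-only peaks overlapped. These were posterior HOX (TTTATNG), PBX (TGATTGA), T-box (AGGTGTG), homeodomain (TAATTA), SOX (ACAATNG), TCF/LEF (ATCAAAG), TEAD (ACATTCC), RUNX (TGTGGTT), FOX (GTAAACA), factors of the GATA family (AGATAAG) and NRF1 (GCGCATG). Posterior HOX letters, for example, were in 10.7% of both members and all distal WT peaks.

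**Figure D5:**
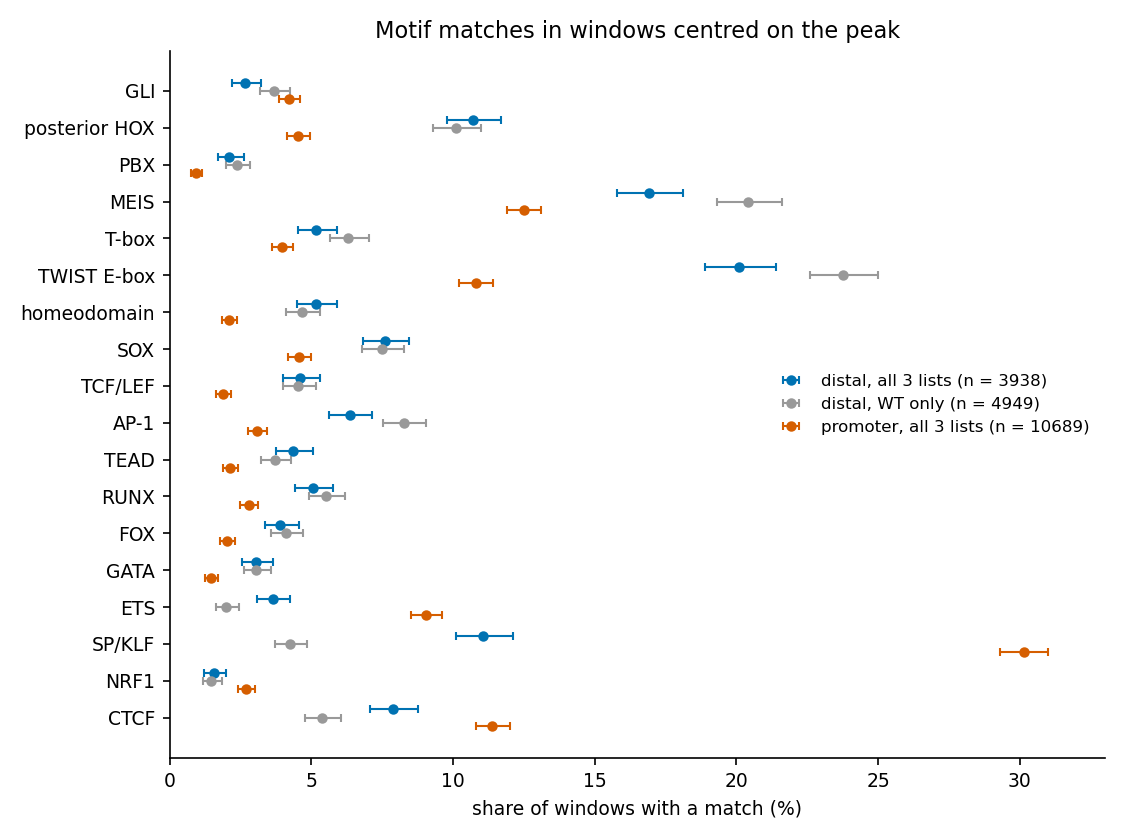
Share of 300 bp windows (%) with at least 1 match to each of 18 motifs, in distal peaks of all 3 lists, distal WT-only peaks and promoter peaks of all 3 lists; error lines are Wilson 95% intervals. SP/KLF letters were in 4.24% of WT-only, 11.05% of common distal and 30.2% of common promoter peaks.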

How the data were processed

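H3K27ac MicroChIP-seq peak lists of WT, Shh-/- and Shh-/-;Gli3-/- forelimb buds were analysed as deposited, 1 list per genotype. The submitters' processing notes name Bowtie2 2.2.5 and the build mm10, and the study's methods name CisGenome for peak calling. Whether replicates were pooled is not given in the sources used here. The authors deposited each peak's width in steps of 50 bp, its highest log2 fold of ChIP reads against input, an FDR (q-value), a score (the largest value of the caller's statistic, never below 3.00) by which they ranked each list, and the smallest Poisson p-value as a −log10, which was not used further. The lists extend beyond an FDR of 0.05, to 0.350 in WT, 0.186 in Shh-/- and 0.109 in Shh-/-;Gli3-/-. Since every genotype had its own input, folds were compared only within a list. Reads, and with them the depth of the libraries, were not used here. Whether positions are counted from 0 or 1 is not stated in the lists.

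Peaks were intersected with scipy 1.17.1, pandas 2.3.3 and numpy 2.4.6 under Python 3.11.15, and placed with GENCODE M21 (basic set). The nearest gene was that of the nearest protein-coding transcript start. Overlapping peaks of the 3 lists were joined into regions, and the covered length was summed per list. Loci were chained over gaps of up to 12500 bp. Shares carry Wilson 95% intervals and medians order-statistic 95% intervals. With 1 list per genotype there were no replicates to test, so no p-value is given. Overlaps, classes and width ratios were tested on simulated data with 200 planted peaks among 5000, all of which were recovered.

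Named were the 20 genes and 10 loci with most members, the 10 members of highest WT fold and the 10 widest, the 5 highest and 5 lowest width ratios per mutant among singly matched members of at least 500 bp and among genes with at least 5 members, members at the edges of the rule, and genes of the lists. For sequences, the first 8 genes were taken, leaving out Zfp608 on a chromosome that was not printed and 2 further sequences; these, 1 gene and 1 member among those named by the rule are not reported here. The members, gene lists and motifs were chosen with earlier results of these data known. Alternatives were reciprocal 50% overlap, an FDR below 0.05, equal numbers of peaks, other promoter windows (5 kb on both sides, or starts of every transcript type), merging within 1 kb, and neighbours within 5 or 50 kb. Singly matched peaks, joined regions and autosomes were added after seeing the data.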

Additional observations from a re-analysis of the deposited data

How the results depend on the processing

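Of 45 values recomputed under 11 alternatives, 13 stayed within their main interval (for the number of members, within 1.5-fold) and 32 moved out of it. Only the width ratios have a direction that could change, and none of them fell below 1.0. Under reciprocal 50% overlap, 915 members were left, 7.84% of distal WT peaks. Of these 63.4% were intergenic and 20.4% had another within 12500 bp, and their width ratios were 1.0 in Shh-/- and 1.25 in Shh-/-;Gli3-/-. That setting demands similar widths by construction. With an FDR below 0.05 in all 3 lists, there were 2308 members, 44.2% of distal WT peaks, 57.2% of them intergenic and 53.2% with a neighbour, with ratios of 1.23 and 2.09. Merging peaks within 1 kb gave 2552 members, 31.4% of distal WT peaks, 58.5% intergenic, 22.2% with a neighbour and a Shh-/-;Gli3-/- ratio of 1.71, in part because fragments of one region became 1 peak. Equal numbers of peaks gave a share of 29.0% and ratios of 1.5 and 2.75. A 5 kb promoter window gave 32.9%, with 60.0% intergenic. Windows at the starts of every transcript type gave 31.3%, with 51.4% intergenic and a Shh-/-;Gli3-/- ratio of 2.77. The share with a neighbour was 60.2% within 5 kb and 73.1% within 50 kb. Of the settings chosen after seeing the data, singly matched peaks gave ratios of 1.17 and 1.63. Joined regions gave 1.20 and 1.67, with 43.75% having another region within 12500 bp. For the settings without a stated reason, the cause of the shift was not tested.

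No paired analysis was possible because the lists hold 1 column set per genotype and no value per replicate, and leaving out a replicate could not be run for the same reason. Depth and the spread between embryos limit every comparison between genotypes and could not be assessed here.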
